A study of Mus musculus with 8 samples.

Results

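H3.3-HA ChIP-seq peaks of mouse embryonic stem cells (mESCs) with intact Hira, the wild type (WT), were compared between the undifferentiated state, day 0, and day 15 of differentiation towards cardiomyocytes. The members were all peaks of the WT day 0 list (22730) and of the WT day 15 list (27272), 50002 of the 75040 regions in the 4 peak lists of the series. The WT cells were of the W9.5 mESC line, carried H3.3 with an HA tag, and were kept on gelatin or differentiated as embryoid bodies in hanging drops, which gave beating foci. Hira-null mESCs (Clone 104, 1 clone, with the same tag) gave the other lists, 17706 regions at day 0 and 7332 at day 15, and served only for comparison. Each condition had 1 ChIP library and 1 input DNA library, so there was no replicate check, and no test or p-value is given. The day 15 cultures were not sorted. A peak that was seen on 1 day only may reflect fewer cells of a type or less H3.3 per cell. It may also have missed the threshold of the peak caller on the other day, since read depth is unknown. These cannot be told apart.

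H3.3 is the variant of histone H3 that enters chromatin outside DNA replication. It marks active genes, their promoters and enhancers, where nucleosomes turn over quickly, and in stem cells also silent repeats. HIRA is the chaperone that places it at most active genes. As mESCs differentiate, the network around Pou5f1 is shut down, and GATA, T-box and MEIS factors come on in the cells that form the heart.

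A day 0 peak was called lost if no day 15 peak overlapped it by at least 1 bp, and kept otherwise. A day 15 peak was called gained if no day 0 peak overlapped it, and kept otherwise. Of the day 0 peaks, 16884 were lost, or 74.3% (95% exact Clopper-Pearson interval 73.7 to 74.8), and 5846 were kept. Of the day 15 peaks, 21277 were gained, or 78.0% (77.5 to 78.5), and 5995 were kept. The day 0 list covered 1.11% of the ungapped genome and the day 15 list 1.23%. Intervals cover counting error over peaks only, and not the error between cultures or libraries. Each peak has a score from the peak caller, −10 times the log10 of its p-value. The score grows with read depth, which is unknown here, and was used to rank peaks within a list. Among the alternatives at the end it also served as a minimum of 100, a cut that depth can shift.

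Single regions show what these groups hold. The sequences below are 300 bp around the peak midpoint, read from the plus strand of the mm9 reference genome (NCBIM37). The first pair of regions lay at a pluripotency gene and at a cardiac transcription factor gene, and each was the highest-scoring of its kind with its midpoint within 3 kb of the transcription start site (TSS) and no base in a UTR. The lost peak upstream of Pou5f1, which encodes OCT4, had a score of 365 and spanned 3599 bp, and its midpoint was 1.96 kb upstream of the TSS (window chr17:35640874-35641173). The gained peak upstream of Tbx2, a T-box repressor of the atrioventricular canal and outflow tract, had a score of 119 and spanned 866 bp, with its midpoint 1.51 kb upstream of the TSS (window chr11:85644395-85644694). The other pair shows the sequence difference described further down, and was chosen after that difference was seen. It holds a high-scoring lost peak with a POU octamer in its window (score 442, 6.99 kb upstream of Gls2, a glutaminase gene, window chr10:127624377-127624676), and a high-scoring gained peak with a GATA motif (score 664, 1.70 kb past the end of Bnip2 and in the promoter class, window chr9:69857670-69857969). Both lie outside chromosomes 8 and 11 and UTRs. Capitals mark the letters of any motif searched, on either strand. They are KLF, SOX and YY1 motifs in the Pou5f1 window, the POU octamer and the GATA motif in the Gls2 window, and the GATA motif in the Bnip2 window, and their letters are spelled out with their shares further on. The Tbx2 window held none of the motifs searched, which says only that these letters are not in it.
Lost, upstream of Pou5f1: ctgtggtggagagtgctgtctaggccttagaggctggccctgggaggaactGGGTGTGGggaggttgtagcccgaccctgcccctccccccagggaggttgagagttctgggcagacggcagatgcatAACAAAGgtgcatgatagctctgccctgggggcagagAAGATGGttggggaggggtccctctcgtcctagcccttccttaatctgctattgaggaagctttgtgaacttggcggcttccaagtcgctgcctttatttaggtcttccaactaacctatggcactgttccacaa
Gained, upstream of Tbx2: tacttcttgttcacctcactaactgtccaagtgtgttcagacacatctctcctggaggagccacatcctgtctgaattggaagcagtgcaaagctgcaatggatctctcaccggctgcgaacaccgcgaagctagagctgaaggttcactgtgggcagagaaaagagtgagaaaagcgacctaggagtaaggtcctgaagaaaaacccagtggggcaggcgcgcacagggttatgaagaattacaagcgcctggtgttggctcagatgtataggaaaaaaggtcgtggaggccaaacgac
Lost, upstream of Gls2: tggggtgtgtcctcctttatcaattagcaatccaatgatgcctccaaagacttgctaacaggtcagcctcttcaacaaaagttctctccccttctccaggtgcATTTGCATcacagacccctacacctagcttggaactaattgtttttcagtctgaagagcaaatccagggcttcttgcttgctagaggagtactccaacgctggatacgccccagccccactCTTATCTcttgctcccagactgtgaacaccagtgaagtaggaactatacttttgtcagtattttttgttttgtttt
Gained, past Bnip2: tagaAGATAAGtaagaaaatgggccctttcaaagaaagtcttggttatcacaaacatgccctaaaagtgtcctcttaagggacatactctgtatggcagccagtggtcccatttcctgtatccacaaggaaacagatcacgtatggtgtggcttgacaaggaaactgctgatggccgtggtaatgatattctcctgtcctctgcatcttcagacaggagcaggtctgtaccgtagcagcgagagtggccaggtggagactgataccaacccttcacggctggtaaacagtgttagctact

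The highest-scoring peaks outside chromosomes 8 and 11 are shown for the repeated units in their sequence. The strongest lost peak covered a coding exon of Gm13242, in a cluster of zinc finger genes (score 2006, window chr4:145291635-145291934). In its window, 94.0% of the bases matched after a shift of 84 bp. The kept peak that ranked first by the sum of its ranks in both lists lay 25.4 kb upstream of Apba2 (score 2033 at day 0 and 1770 at day 15, window chr7:71621037-71621336), and its best self-match at a fixed shift was 58.4%, at 139 bp. A fixed shift misses repeats whose units differ in length, so this low value does not show that the window is free of repeats. The strongest gained peak lay in an intron of D15Ertd621e (score 1093, window chr15:58270640-58270939), with 97.5% of bases matching after 96 bp. None of the 3 windows held a motif that was searched.
Lost, Gm13242: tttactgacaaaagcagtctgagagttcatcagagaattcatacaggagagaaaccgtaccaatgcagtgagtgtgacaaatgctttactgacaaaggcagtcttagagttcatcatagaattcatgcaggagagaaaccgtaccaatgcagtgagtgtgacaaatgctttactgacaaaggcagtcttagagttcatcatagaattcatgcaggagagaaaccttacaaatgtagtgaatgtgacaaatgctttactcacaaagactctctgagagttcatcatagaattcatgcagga
Kept, upstream of Apba2: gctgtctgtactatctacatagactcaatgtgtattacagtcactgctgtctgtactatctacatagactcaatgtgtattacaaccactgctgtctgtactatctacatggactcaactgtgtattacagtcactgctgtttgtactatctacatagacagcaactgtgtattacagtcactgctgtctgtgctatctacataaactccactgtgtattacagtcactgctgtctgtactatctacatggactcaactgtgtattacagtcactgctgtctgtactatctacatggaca
Gained, D15Ertd621e: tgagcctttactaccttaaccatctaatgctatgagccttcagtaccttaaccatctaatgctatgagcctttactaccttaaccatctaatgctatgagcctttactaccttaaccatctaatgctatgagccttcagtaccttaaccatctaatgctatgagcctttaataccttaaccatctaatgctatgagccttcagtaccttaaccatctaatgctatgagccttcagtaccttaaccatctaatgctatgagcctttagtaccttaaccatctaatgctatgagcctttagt

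Few windows passed a limit on this self-match. A window with at least 80% self-match at a shift of 5 to 150 bp was found in 0.592% of lost, 1.35% of kept day 0, 1.57% of kept day 15 and 0.310% of gained peaks, and in 0.174% of genome windows. Among the 100 highest-scoring peaks of each group the shares were 9%, 19%, 5% and 5%. How reads were placed among near-identical copies was not tested.

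Chromosomes 8 and 11 stood apart on both days. Chromosome 11 had 24.3 peaks per Mb at day 0 and 47.9 at day 15, against pooled values of 8.38 and 8.43 on the 17 other autosomes, or 2.90 and 5.68 times as many. Chromosome 8 had 13.3 and 27.5 peaks per Mb, or 1.58 and 3.26 times as many. On the other autosomes the ratio of day 15 to day 0 peaks ran from 0.827 (chromosome 13) to 1.21 (chromosome 6), while it was 1.97 on chromosome 11 and 2.07 on chromosome 8. The excess was smallest among lost peaks, at 1.66 times on chromosome 11 and 1.16 on chromosome 8. On chromosome 11 it was 7.85 times among kept day 0 peaks, 8.19 times among kept day 15 peaks and 5.05 times among gained peaks. Together the pair held 13.6% of lost, 38.4% of kept day 0 and 31.8% of gained peaks on 9.52% of the ungapped sequence. Chromosome X lay at the other end, with 157 peaks at day 0, 24 at day 15 and 1 kept day 0 peak. The copy number of these chromosomes was not measured, and its part in the peak densities was not tested.

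**Figure D1:**
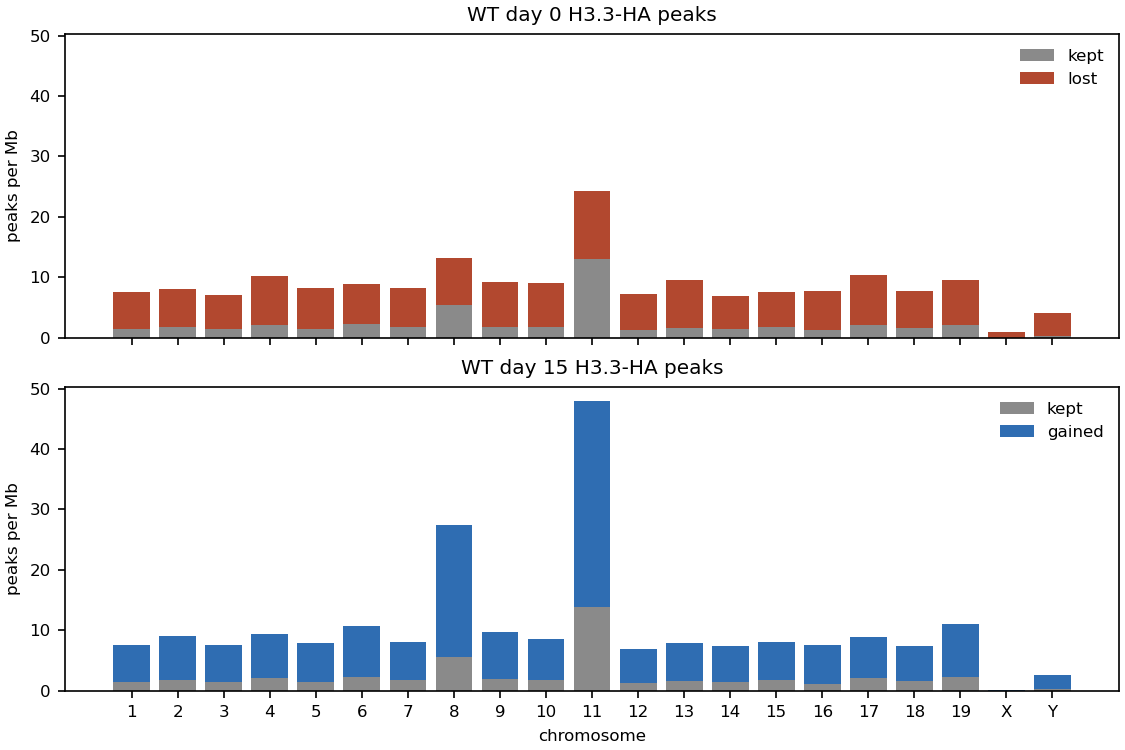
WT H3.3-HA peaks per Mb of ungapped sequence on each chromosome (horizontal axis), with kept peaks in grey, lost peaks in red (day 0, upper panel) and gained peaks in blue (day 15, lower panel), 1 library per panel. Chromosome 11 reaches 47.9 peaks per Mb at day 15 and chromosome 8 reaches 27.5, while the other autosomes stay between 6.86 and 11.1.

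Without chromosomes 8 and 11 the lists were nearly equal in length, 18191 peaks at day 0 and 18155 at day 15. There, 80.2% of day 0 peaks were lost (79.6 to 80.8) and 79.9% of day 15 peaks were gained (79.3 to 80.5). On chromosomes 8 and 11 alone, 50.6% were lost and 74.3% were gained. Values outside these chromosomes are therefore given beside many of the results.

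Strong and wide peaks were kept more often. Of the 10% of day 0 peaks with the highest scores, 56.1% were lost (54.0 to 58.1), while the share was 82.0% (80.4 to 83.6) in the lowest-scoring 10%. These shares were 64.9% and 86.9% outside chromosomes 8 and 11. Among day 0 peaks of at least 4000 bp, 27.1% were lost, against 83.8% of those from 500 to 1000 bp. At day 15 the shares gained at these widths were 18.3% and 84.5%. A wide peak offers more sequence to overlap, so width and overlap are not independent. Median width was 983 bp for lost peaks, 1297 bp for kept day 0 peaks, 1140 bp for kept day 15 peaks and 921 bp for gained peaks. Without chromosomes 8 and 11 the medians were 958, 1166, 1011 and 872 bp.

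Kept peaks changed in extent, and so did the lists as a whole, with median widths of 1045 bp at day 0 and 952 bp at day 15. The part of read depth in these widths was not tested. In 4784 cases 1 day 0 peak overlapped 1 day 15 peak and no other. In these pairs the median width went from 1269 to 1106 bp, 43.0% were wider at day 15, and the overlap covered a median of 61.0% of the joint span. Across the pairs Spearman's rho was 0.165 for score and 0.295 for width, given as a description, since neighbouring peaks share libraries and genes. From a lost peak to the nearest day 15 peak the median gap was 31.1 kb, and 40.9% of gaps were above 50 kb. Gained peaks lay closer to day 0 peaks, with a median of 17.4 kb and 25.1% above 50 kb. The medians were 35.3 and 21.3 kb outside chromosomes 8 and 11. A peak of the other day lay within 1 kb of 6.16% of lost and 7.49% of gained peaks. No gaps from genome windows are given, so these distances have no background to be read against.

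Lost peaks lay mostly between genes, and gained peaks mostly in introns. Each midpoint was given 1 class, the first that applied. Promoters reached 3 kb upstream from a TSS and came first, then the 3 kb that follow a gene, then UTRs, coding exons, introns, and last the distal intergenic rest. Distal intergenic sequence held 50.3% of lost peaks (49.6 to 51.1), 22.0% of kept day 0 peaks and 23.1% of gained peaks (22.5 to 23.7), on 57.4% of the genome. Introns held 37.7%, 47.7% and 56.4%, on 35.4% of the genome. Promoters held 6%, 14.4% and 10%, or 2.35, 5.63 and 3.93 times their share of the genome. Sequence just past gene ends held 3.29%, 9.49% and 6.69%, or 1.43, 4.12 and 2.91 times its share. Outside chromosomes 8 and 11 the distal intergenic shares were 50.6%, 25.1% and 23.8%, the intron shares 37.1%, 42.7% and 56.2%, and the promoter shares 6.27%, 15.7% and 9.44%.

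**Figure D2:**
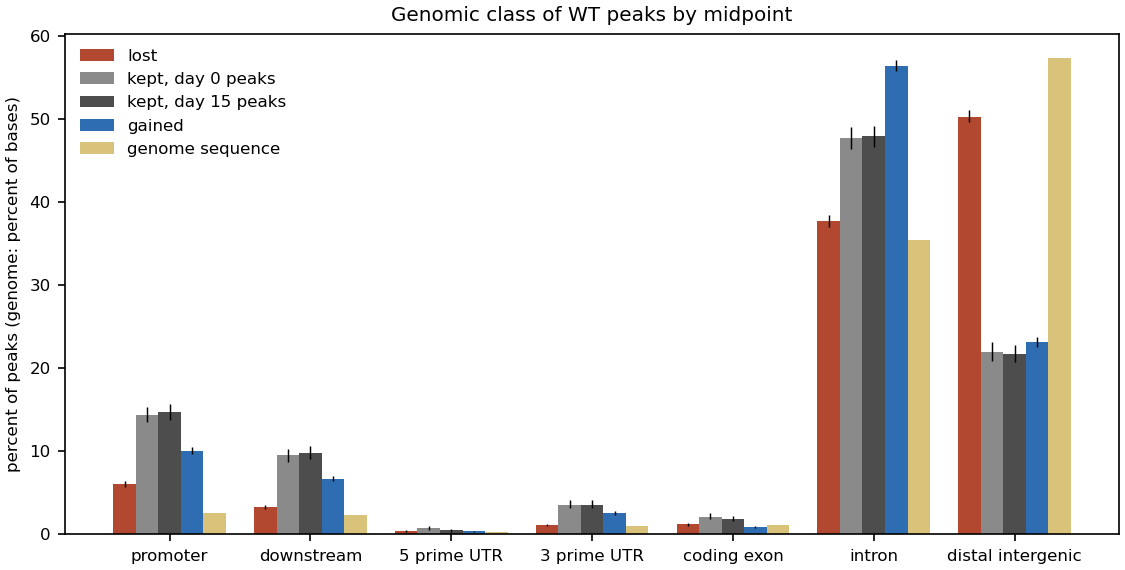
Percent of lost, kept and gained WT peaks in each of 7 genomic classes by midpoint, beside the percent of genome bases in the class, with exact 95% intervals over peaks as error bars. Distal intergenic sequence holds 50.3% of lost and 23.1% of gained peaks, and introns hold 37.7% and 56.4%.

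Read by class, the share of day 0 peaks that were lost was highest in distal intergenic sequence, at 86.9% of 9784 peaks. It was 69.5% of 9160 in introns, 54.6% of 1855 in promoters, 50% of 1111 past gene ends and 47.1% of 393 in 3′ UTRs. Leaving out chromosomes 8 and 11, the same shares were 89.1%, 77.9%, 61.8%, 56.2% and 56.4%. At day 15, 80.7% of intron peaks, 79.1% of distal intergenic peaks and 70.8% of promoter peaks were gained.

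Around genes, kept peaks were sharply placed. Between 1000 and 500 bp before the nearest TSS lay 49.3 of every 1000 kept day 0 midpoints, 28.5 of gained and 16.8 of lost ones. Within 1 kb of a TSS lay 4.06% of lost, 8.79% of kept day 0 and 5.86% of gained peaks. Within 1 kb of a gene end lay 2.38%, 9.27% and 5.33%. The midpoint lay inside a gene for 41.9% of lost, 59.9% of kept day 0 and 64.7% of gained peaks. Kept day 0 peaks inside genes placed 22.8% of their number in the last of 5 equal parts of the gene, against 18.1% of lost and 18.8% of gained peaks. Peaks touching the 1 kb on either side of a TSS were seen at day 0 only for 1025 genes, at day 15 only for 1925 and on both days for 889. For gene ends the numbers were 645, 1584 and 860. Outside chromosomes 8 and 11 they were 911, 1239 and 584 at the TSS and 563, 1058 and 567 at the gene end.

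**Figure D3:**
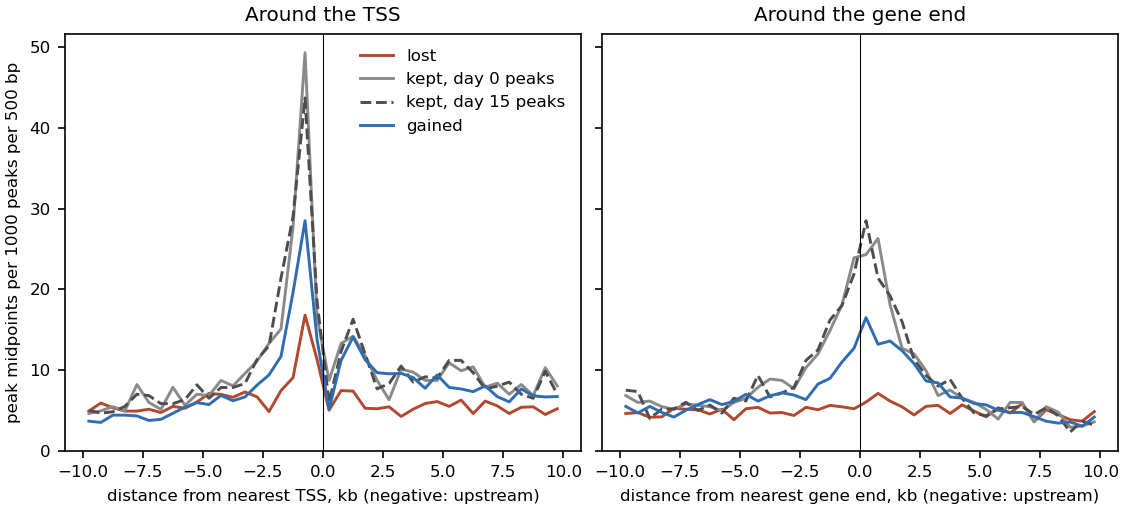
Midpoints of lost, kept and gained WT peaks per 1000 peaks of the group, counted per 500 bp against distance to the nearest TSS (left) and gene end (right), in kb with upstream negative. Between 1000 and 500 bp before the TSS the curves reach 49.3 for kept day 0, 28.5 for gained and 16.8 for lost peaks.

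Peaks were assigned to every gene whose window they touched. The window began 10 kb before the TSS and ended 200 bp after the gene. Windows of neighbours overlap, and long genes have more room for peaks, so counts per gene are not corrected for length. Of 22367 protein-coding genes, 7520 (33.6%) had a day 0 peak and 8308 (37.1%) a day 15 peak. Peaks were present at day 0 only at 2548 genes (11.4%), at day 15 only at 3336 (14.9%) and on both days at 4972 (22.2%). On the other chromosomes without 8 and 11 the day 0 only share was 12.2% and the day 15 only share 13.5% of 19632 genes. Of the 4972 genes with peaks on both days, 1763 shared no peak between the days. The gene lists below were read against these shares.

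Pluripotency genes lost peaks. Of 30 genes, 24 had a day 0 peak (80%, against 33.6% of all genes) and 9 a day 15 peak (30%, against 37.1%). At 15 genes peaks were present at day 0 only (50%, against 11.4%), and no gene had peaks at day 15 only. Together the windows held 116 peaks at day 0, of which 105 were lost, and 20 at day 15, of which 9 were gained. Outside chromosomes 8 and 11, peaks were present at day 0 only at 14 of 28 genes, and at day 15 only at none. All 4 day 0 peaks at Pou5f1 were lost, with scores of 59.5, 152, 365 and 87.0 at −9.09, −6.58, −1.96 and 3.53 kb from the TSS. Zfp42, which encodes REX1, went from 8 peaks to 0, Dppa2, a factor that keeps developmental promoters poised, from 6 to 0, and Esrrb, an orphan nuclear receptor of naive cells, from 11 to 0. All 11 peaks at Esrrb were intronic, between 34.6 and 147 kb past the TSS.

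The other members varied. Tdgf1, the Nodal co-receptor gene, and Dppa5a went from 5 to 0 each, and Rif1, a factor in replication timing, from 4 to 0. Sox2 had 1 peak at day 0 and 0 at day 15. Tet1, a 5-methylcytosine dioxygenase gene, went from 24 peaks to 1, with 23 lost peaks of scores 50.4 to 324 and 1 kept peak that scored 206 at day 0 and 76.8 at day 15. Its relative Tet2 went from 10 to 2 and Trim71, an RNA-binding regulator of stem cells, from 11 to 5. Nanog had 3 peaks at day 0. The 1 just upstream of its TSS was kept (scores 93.7 and 51.9), and those at −4.46 and 6.67 kb were lost (scores 271 and 482). Against the others, Lin28a, an RNA-binding gene that blocks let-7, went from 2 to 4 with 3 gained. Its relative Lin28b had 3 on each day, with 2 of the day 15 peaks gained. Sall4 had 2 peaks on each day, both kept, and Klf2, Klf4 and Dppa4 had none on either day.

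Among cardiac transcription factors the number of peaks rose more than the number of genes. Of 37 genes, 14 had a day 0 peak (37.8%) and 17 a day 15 peak (45.9%, against 37.1% of all genes), while the peaks went from 31 to 126. Peaks at day 15 only were seen at 7 genes (18.9%, against 14.9%). Meis1, a TALE homeobox gene of heart and blood, went from 1 peak to 36, and its day 0 peak was kept. The 35 gained peaks had scores from 50.3 to 624, and 30 lay in introns. Tead1, which encodes a DNA partner of YAP, went from 5 to 26 and Foxp1, a forkhead gene, from 3 to 10. Gata4 went from 0 to 7, Gata6 from 0 to 4 and Zfpm1, a GATA cofactor gene, from 0 to 7. The 7 peaks at Gata4 scored from 51.6 to 182, and 6 of them were intronic.

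Tbx2 went from 0 to 4 and Tbx20, a T-box gene of the chambers, from 0 to 2. Mef2c had 0 and 2, and Hand2, a bHLH gene of the right ventricle, 0 and 1. The pattern was not shared by all members. Smyd1, a muscle methyltransferase gene, went from 5 to 1, and 16 genes, Nkx2-5, Isl1, Hand1 and Tbx5 among them, had no peak on either day. Of the list, 7 genes lie on chromosomes 8 and 11, namely Meis1, Tbx2, Myocd, Hand2, Zfpm1, Hand1 and Irx3. Without them, 12 of 30 genes had a day 0 peak and 12 a day 15 peak, 8 of them on both days, and the peaks went from 29 to 70. Peaks at day 15 only were then at 4 genes (13.3%, against 13.5% of all genes there), near the share of all genes. Peaks at day 0 only were at 4 genes too (13.3%, against 12.2%).

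Contractile genes were uneven. Of 26 sarcomere genes, 7 had a day 0 peak (26.9%, against 33.6% of all genes) and 12 a day 15 peak (46.2%, against 37.1%), with 15 and 40 peaks. The numbers were 5 and 8 of 21 genes (38.1% at day 15) outside chromosomes 8 and 11. Tpm1, a tropomyosin gene, went from 0 to 7, and Nexn, a Z-disc protein gene, from 3 to 10, while Myh6, Myh7, Actc1 and Tnnt2, which define cardiomyocytes, had none on either day. For calcium handling and ion channels the counts were 14 and 16 of 27 genes (51.9% and 59.3%, against 33.6% and 37.1%), with 32 and 44 peaks. These genes are long, with a median of 95.6 kb, and the counts are not corrected for length. Atp2a2, which encodes the SERCA calcium pump, had 6 and 5 peaks, 3 of them kept, and Pln, its regulator, 0 and 1. Peak lists show where H3.3 was enriched and not which genes were expressed, so the cell type of the day 15 cultures was not checked by them.

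Markers of other cell types were read against the same 33.6% of all genes at day 0 and 37.1% at day 15. Smooth muscle genes had a peak at 4 of 13 genes at day 0 (30.8%) and 8 at day 15 (61.5%), and fibroblast and matrix genes at 8 and 15 of 25 (32% and 60%). Endoderm genes, at 2 and 6 of 14 (14.3% and 42.9%), and endothelial and blood genes, at 4 and 7 of 18 (22.2% and 38.9%), were near the share of all genes at day 15. Both lists were below that share at day 0. Peaks at day 15 only were at 5 endoderm genes (35.7%, against 14.9% of all genes) and 4 endothelial and blood genes (22.2%). The same held for 4 smooth muscle genes (30.8%) and 9 of 25 fibroblast and matrix genes. It held for 1 neural gene and for 2 genes of the primed epiblast and early mesoderm. Neural genes had 12 and 8 of 20 (60% and 40%), and at 5 of them (25%, against 11.4%) peaks were present at day 0 only. Genes of the primed epiblast and early mesoderm had 5 and 4 of 21. Which cells in the day 15 culture carried these peaks was not tested.

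The largest increases in the matrix list were at genes of the basement membrane, the sheet under muscle and epithelial cells. Col4a1, which encodes the alpha 1 chain of collagen IV, went from 0 peaks to 30, with scores from 50.5 to 628, and 26 of the peaks were intronic. Its divergent neighbour Col4a2 went from 1 to 26, and the pair shares part of a window on chromosome 8. Outside chromosomes 8 and 11, Lamb1, a laminin chain, went from 0 to 10 and Lamc1, another chain, from 4 to 14. At Col1a1 and Col3a1, fibrillar collagen genes, the counts were 0 and 1 each. Without both chromosomes the list had 5 and 11 of 20 genes and 10 and 39 peaks.

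Signalling genes gained peaks on several branches. Of 38 genes of the Wnt, Notch, BMP and TGF-beta pathways, 20 had a day 0 peak (52.6%, against 33.6% of all genes). A day 15 peak was at 28 of them (73.7%, against 37.1%), and at 12 genes (31.6%, against 14.9%) peaks were present at day 15 only. These were 11 of 34 genes outside chromosomes 8 and 11. Among receptors, Bmpr2 went from 3 peaks to 11 and Notch2 from 1 to 5. Among effectors, Smad1 went from 0 to 6 and Tcf7l2, a Wnt-responsive factor gene, from 1 to 12, while Rbpj, which encodes the DNA-binding factor of Notch signalling, went from 23 to 8 with 18 lost. Id1, a BMP target, went from 5 to 1. Of 21 genes of the Hippo and actin-SRF programme, 19 and 17 had a peak and 17 had peaks on both days (81.0%, against 22.2%), and the peaks went from 43 to 96. Mkl1, an actin-sensing coactivator gene of SRF, went from 2 to 14, Vcl, the vinculin gene, from 4 to 11 and Filip1l from 1 to 9.

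Chromatin regulators had peaks on both days, with changes inside the list. Of 26 Polycomb, Trithorax and DNA methylation genes, 16 had peaks on both days (61.5%, against 22.2%), with 97 and 94 peaks. Outside chromosomes 8 and 11, 13 of 21 genes had peaks on both days (61.9%, against 19.4%). There the peaks fell from 81 to 66, so the near-equal totals rested on those 2 chromosomes. Jarid2, a cofactor of Polycomb repressive complex 2, went from 35 to 9, with 31 lost peaks of scores 53.6 to 413. Suz12, a core subunit of that complex, had 14 and 15 peaks, and 13 of the 14 day 0 peaks were kept. Mll5 went from 2 to 14, Ezh1 from 1 to 9 and Eed from 3 to 0. Of the 12 H3.3 genes and chaperones, 8 had a day 0 peak and 9 a day 15 peak. Outside chromosomes 8 and 11, 7 of 10 had a day 0 peak and 7 a day 15 peak, 6 of them on both days. H3f3b, 1 of the genes for H3.3, went from 6 to 2, H3f3a had 3 on each day, and Hira itself had 0 and 3.

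Housekeeping, glycolysis and cell cycle genes with a peak were similar in number on both days, though single peaks changed. The shares of all genes with a peak were 33.6% at day 0 and 37.1% at day 15. Housekeeping genes had a peak at 13 of 16 genes on each day (81.2%), with 30 and 29 peaks, and no gene had peaks on 1 day only. Of the 30 day 0 peaks 13 were lost, and of the 29 day 15 peaks 12 were gained. Glycolysis genes had 13 and 12 of 17 (76.5% and 70.6%), with 54 and 50 peaks. The glucose transporter gene Slc2a3 had 13 and 12 peaks with 7 of the day 0 peaks kept, and Pkm2 had 11 and 5. Cell cycle genes had 13 and 14 of 22 (59.1% and 63.6%). Imprinted genes had 8 and 13 of 19 (42.1% and 68.4%). At 7 of them (36.8%, against 14.9%) peaks were present at day 15 only. Peg3 went from 0 to 4 and Igf2r from 1 to 5. These lists, like all others here, have no replicate, and a difference of a few genes cannot be read as a change.

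**Figure D4:**
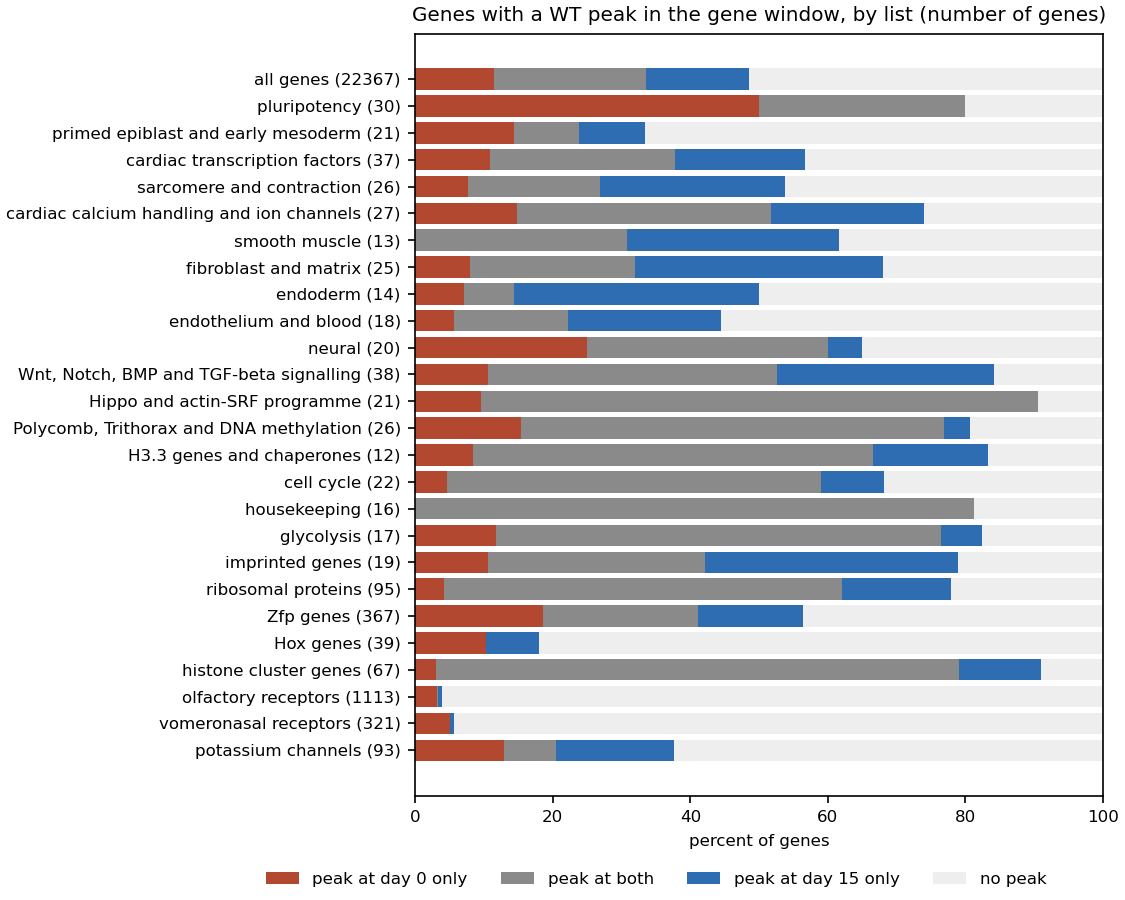
Percent of genes in each list, and of all 22367 protein-coding genes, with a WT peak in the gene window at day 0 only (red), on both days (grey), at day 15 only (blue) or on neither (light grey), with the number of genes in brackets. Pluripotency genes have peaks at day 0 only in 50%, against 11.4% of all genes, and housekeeping genes have peaks on both days in 81.2%.

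Over all genes, list members included, those with the most day 0 peaks and no day 15 peak were Usp7, a deubiquitinase gene (12 peaks), Esrrb (11), Btbd11, Gm13154 and Ttc39b (9 each), and Cdyl2, Dcbld1, Gm13138, Zfp42 and Zfp57 (8 each). Zfp57 encodes a KRAB zinc finger protein that protects imprinted methylation. Genes with the most day 15 peaks and no day 0 peak had higher counts. They were Col4a1 (30), Ppfibp1, a liprin gene (28), Nrp1, a VEGF and semaphorin co-receptor gene (17), Mprip and Rock2, a kinase gene of the actin cytoskeleton (16 each), Rffl and Tjp1, a tight junction gene (15 each), Dnm3, a dynamin gene (14), Insr, the insulin receptor gene (13), and Atp13a3 (11). Of these 10, Col4a1, Nrp1, Mprip, Rffl and Insr lie on chromosomes 8 and 11. Without those chromosomes the rule added Cobll1, Fchsd2 and Phactr2 (11 each), and Lamb1 and Nckap1 (10 each), and Cep55 and Lix1 (7 each) on the day 0 side.

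Of the 10 genes with the most kept day 0 peaks, 9 lay on chromosomes 8 and 11. They included 1700081L11Rik (43 kept of 43), Usp34, a deubiquitinase gene (29 of 35), Ncor1, a nuclear corepressor gene (28 of 42), Taok1, a kinase gene (26 of 28), Cnot1, the scaffold of a deadenylase complex (24 of 25), Ankrd11 (17 of 18), Cltc, the clathrin heavy chain gene (17 of 17), and Npepps (17 of 20). Gm20388 (41 of 60) is a model of 4435 kb that spans many genes and stands for no single one. Macf1, a cytoskeletal linker gene on chromosome 4, had 16 of 33. Outside both chromosomes followed Dhx9, an RNA helicase gene (12 of 14), Nedd4 (10 of 16), Trip12 (10 of 25), Cbx5, which encodes HP1 alpha (9 of 9), Chd2 (9 of 12), Pcbp2 (9 of 11), Aebp2 (8 of 10) and Atf7ip (8 of 11).

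Peaks joined up to 12 kb apart formed 524 domains of at least 5 peaks at day 0 and 1030 at day 15, which held 18.4% and 37.0% of the peaks. At day 0, 74 of them (14.1%) had no day 15 peak, and at day 15, 215 (20.9%) had no day 0 peak. Outside chromosomes 8 and 11 the numbers were 353 and 549, with 18.7% and 25.1%. By number of peaks, the largest domains without a peak of the other day were at Ranbp17 (21 peaks over 94.6 kb at day 0), Gm13154 and 2610305D13Rik (17 peaks over 98.3 kb), Zfp42 (13), 2410141K09Rik (12) and Fgfr2 with Ctbp2 (12). At day 15 they were at Ppfibp1 (27 peaks over 111 kb), Col4a1 with Col4a2 (25), Ypel2 (18), Rock2 (16) and Rffl with Lig3 (15). Among domains with kept peaks, the one with most peaks at day 0 spanned Ncor1 (45 peaks, 29 kept) and at day 15 Usp34 with Xpo1 (79 peaks, 39 kept). Jarid2 and Rbpj formed day 0 domains of 25 and 30 peaks, of which 2 and 6 were kept.

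By windows of 1 Mb, covered length fell in 1472 and rose in 919 of the 2391 windows with a peak. A rise of over 10 kb was seen in 298 windows, of which 132 lay on chromosomes 8 and 11, and a fall of over 10 kb in 213, of which 15 lay there. The largest falls were at clusters of zinc finger genes. The window of chromosome 4 from 146000001 to 147000000, with Zfp600, Gm13154 and 2610305D13Rik, went from 182 kb under 85 peaks to 9.69 kb under 6. The neighbouring window from 145000001 to 146000000, with Gm13242 and Gm13247, went from 173 to 13.5 kb, and the window of chromosome 13 from 66000001 to 67000000, with Zfp640 and 2410141K09Rik, from 124 to 6.55 kb. The Hira-null lists held 43, 33 and 63 peaks in these windows at day 0 and 20, 16 and 23 at day 15. All of the 5 highest-scoring lost peaks lay there, at Gm13242, Gm13247, Gm13151, 2410141K09Rik and Gm13145, with scores from 1576 to 2006. These genes are near copies of each other, so single genes are uncertain.

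Next came windows of chromosome 11 with Ranbp17 (101 to 15.0 kb) and Cobl (69.1 to 5.68 kb), and, outside chromosomes 8 and 11, the next window of chromosome 4 with Zfp534 (77.2 to 13.8 kb) and a window of chromosome 6 with Phc1 and Slc2a3 (74.2 to 24.3 kb). The 5 largest rises lay on chromosomes 8 and 11, led by the window with Vmp1, Med13 and Cltc (111 to 323 kb). The others held Pard3 (43.5 to 182 kb), Bcas3 (25.1 to 144 kb), Tanc2 (46.9 to 161 kb) and Ssh2 (133 to 240 kb). Elsewhere the largest were at Ppfibp1 (19.3 to 72.6 kb), Pde3a, a cardiac phosphodiesterase gene (3.41 to 55.7 kb), Zcchc11 (24.5 to 74.5 kb), Setd5 (21.8 to 61.7 kb) and Usp3 with Tpm1 (7.07 to 46.2 kb).

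The strongest gained peaks lay at Cct4 (score 1223), D15Ertd621e (1093), Sprr2a2 (1032), Appbp2 (921) and 121 kb from Maf (916), and outside chromosomes 8 and 11 also in Ppfibp1 (822) and at Prpf38a (775). The strongest kept peaks, by the sum of ranks in both lists, lay near Apba2, in D5Ertd579e (scores 1028 and 3100), at Rfc4 (1254 and 1740), past the end of Hnrnpu, an RNA-binding protein gene (957 and 1643), and at Phf10 (726 and 1702).

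The sequence under the peaks differed between lost and gained peaks at some letters known to bind stem cell factors, and at the GATA motif. Other motifs of cardiac and muscle factors did not all follow the GATA motif. In 300 bp around the midpoint, the POU octamer ATGCAAAT was present in 5.27% of lost peaks (4.94 to 5.62), 2.39% of kept day 0 peaks and 1.76% of gained peaks (1.59 to 1.94), against 2.65% of 255844 genome windows of that length. GGGTGTGG, bound by KLF factors, was in 4.34%, 3.47% and 1.70%, against 1.79%. AAGGTCA, bound by ESRRB and related nuclear receptors, was in 8.87%, 7.77% and 6.29%, against 5.52%. The GATA motif AGATAAG ran the other way, at 3.91% of lost (3.62 to 4.21), 5.82% of kept day 0, 6.79% of kept day 15 and 8.88% of gained peaks (8.50 to 9.27), against 4.38%. Outside chromosomes 8 and 11 the octamer was in 5.54% of lost and 1.87% of gained peaks and the GATA motif in 4.07% and 9.50%. The Gls2 and Bnip2 windows printed above hold these letters.

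The other motifs differed in either direction or hardly at all. TGACAG (MEIS) was in 17.6% of lost and 21.2% of gained peaks, TGANTCA (AP-1) in 11.1% and 12.9%, and CTAAAAATA (MEF2) in 0.486% and 0.963%, against 18.3%, 8.79% and 0.781% of genome windows. CAGCTG, an E-box of muscle factors, was commoner in lost peaks, at 18.9% and 13.6% (genome 10.7%), as were CCGGAAG (ETS), at 1.58% and 0.926%, and GCGCANGC (NRF1), at 1.85% and 0.860%. ACATTCC (TEAD) was in 7.13% and 6.69%, against 4.04%, so both groups held it more often than the genome. AACAAAG (SOX) was in 11% and 10.1%, TNAAGTG (NKX2) in 19.1% and 18.4%, and AAGATGG (YY1) in 5.67% and 5.13%, against 8.92%, 16.6% and 7.62%. The NKX2 order turned with the window, at 32.4% of lost and 33.5% of gained peaks in 600 bp. The CArG box of SRF was in 1.74% of both, and the CTCF core in 0.154% and 0.146%. Both strands were searched, and motifs that overlap were each counted.

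**Figure D5:**
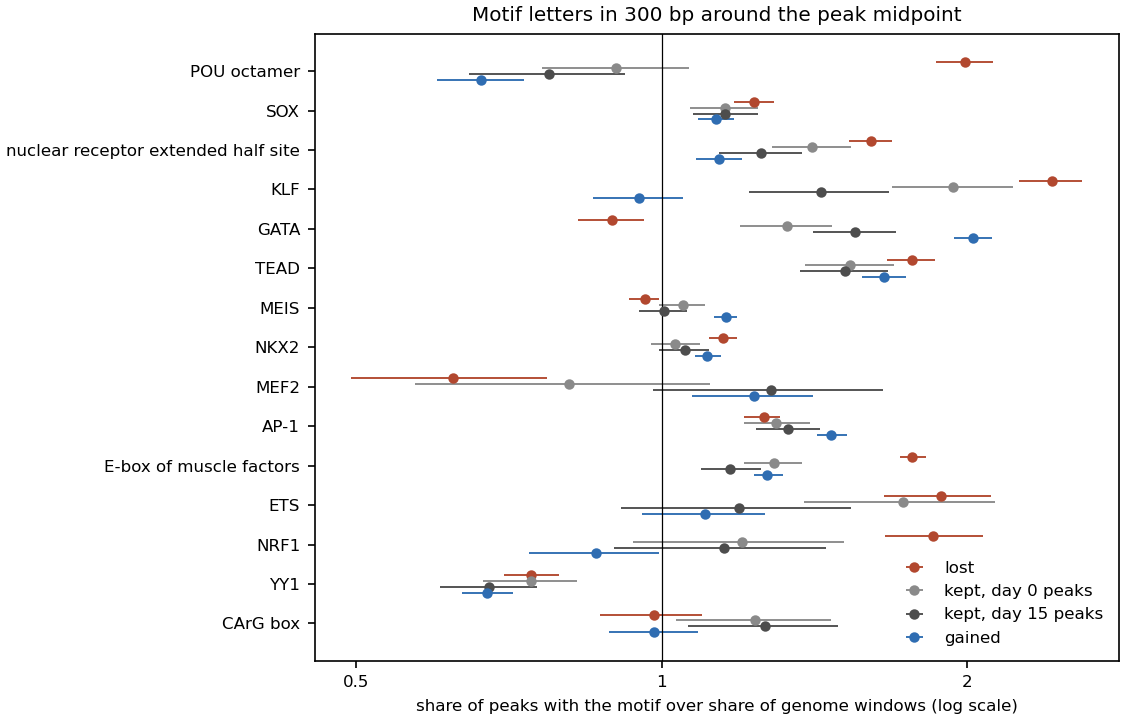
Share of lost, kept and gained WT peaks with the letters of each motif in 300 bp around the midpoint, divided by the share of genome windows of the same length, on a log axis, with exact 95% intervals over peaks. The POU octamer (5.27% of lost and 1.76% of gained peaks) and the GATA motif (3.91% and 8.88%) lie on opposite sides of the genome value of 1.

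Base composition moved with these shares. Median GC was 45.7% in lost, 44.3% in kept day 0, 42.7% in kept day 15, 42.3% in gained peaks and 41.7% in genome windows. Within windows of 45 to 55% GC, the GATA motif was still in 3.38% of lost and 9.66% of gained peaks. The gap at the E-box CAGCTG was smaller there, at 21.4% of lost and 19.1% of gained peaks, against 16.7% of genome windows. A match is a description of letters and no evidence that a factor was bound.

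The Hira-null lists, which the split did not use, overlapped the groups unequally. Of lost peaks, 33.3% (32.6 to 34.0) overlapped a Hira-null day 0 peak, 3.73% a Hira-null day 15 peak, and 65.8% neither. Of kept day 0 peaks, 9.99% (9.23 to 10.8) overlapped a Hira-null day 0 peak, 14.9% a Hira-null day 15 peak and 80.5% neither. Of gained peaks, 1.14% and 6.19% overlapped these lists and 93.2% (92.9 to 93.6) overlapped neither. Without chromosomes 8 and 11, neither list was overlapped by 64.8% of lost, 75.7% of kept day 0 and 91.6% of gained peaks. Single genes differed in this, and those named next were chosen after their values were seen. Pou5f1, Dppa2, Meis1, Tead1, Gata6, Tbx2 and Col4a1 had no Hira-null peak on either day. The share of all genes without a Hira-null peak was not computed, and the Hira-null day 15 list was the shortest of the series. The lack of such a peak therefore does not set these genes apart from others, and their dependence on HIRA was not tested here. Other genes with day 15 peaks in WT cells had them in Hira-null cells too, with Hira-null counts of 1 and 6 at Gata4, 0 and 8 at Tpm1, 0 and 10 at Peg3, 1 and 12 at Igf2r, 0 and 11 at Phactr2 and 0 and 12 at Dnm3. Esrrb had 4 and 1. In Hira-null cells themselves, 90.8% of day 0 peaks had no day 15 peak (90.3 to 91.2) and 76.5% of day 15 peaks had no day 0 peak (75.5 to 77.5), from lists of 17706 and 7332 regions. The lists differ in length, and depth was unknown, so these shares were not compared further.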

How the data were processed

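H3.3-HA native ChIP-seq (micrococcal nuclease digestion, anti-HA) was measured in 8 samples, 4 of them ChIP libraries. As the methods and the submitters' processing notes state, the authors aligned paired-end reads to mm9 with Bowtie, removed duplicates with Samtools and called peaks with MACS 1.4.2 at its default threshold. Whether input served as control is not stated. The deposited score is −10 times the log10 of the peak p-value, and its minimum is 50.0. Depth is unknown.

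Overlaps, classes, domains and windows were computed with Python 3.11.15, numpy 2.4.6, pandas 2.3.3 and scipy 1.17.1, figures with matplotlib 3.10.9. Overlap calls matched bedtools 2.31.1 (0 of 22730 and 0 of 27272 differed) and were tested on simulated data. Genes came from GENCODE M1, and sequence from NCBIM37, which has the coordinates of mm9. Genome windows were taken every 10 kb.

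Members, 25 gene lists (18 by symbol, 7 families by name) and 16 motifs were chosen with earlier results of these data known. Named items were the 5 top-scoring peaks per group, 10 genes per class, 5 domains and 5 windows per direction, each with and without chromosomes 8 and 11, and list members, of which a few are not reported here. A symbol with 2 models (such as Tnnc1) was counted by the longest. Sox1, Map2 and H19 were not found under these names. Windows with UTR bases were not printed as sequence. The tandem repeat measure was added after the data were seen. Alternatives were other overlap rules, score minimums, list lengths, chromosomes, gene windows, classes, stitching distances and sequence windows.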

Additional observations from a re-analysis of the deposited data

How the results depend on the processing

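No paired analysis was possible because each condition had 1 ChIP library. The direction of each contrast named in this paragraph (lost peaks more often distal intergenic, wider kept peaks, more octamers in lost and more GATA letters in gained peaks) was the same under every alternative run for it, while many sizes moved beyond counting error. The cause of these moves was not tested. The shares lost and gained were 79.0% and 81.6% when an overlap of 50% of the peak was required, 69.7% and 72.2% with the other list widened by 1 kb, and 76.4% and 76.2% with lists of equal length. They were 80.2% and 79.9% without chromosomes 8 and 11. When both lists were held to scores of 100 or more they were 77.1% (6008 peaks) and 83.3% (9073), and with that score asked of the tested list only 66.5% (5179) and 67.9% (7399). Autosomes alone gave the same shares within the interval. With a score of at least 100, genes with peaks at day 0 only numbered 1621 and on both days 1999, and 5 matrix genes in place of 9 had peaks at day 15 only. Those list counts under other settings were added after the data were seen. Distal intergenic shares of lost and gained peaks were 49.2% and 22.2% by any overlap, and 52.7% and 26.2% with a promoter of 1 kb. For gained peaks the share was 23.8% without chromosomes 8 and 11 and 21.1% with a score of at least 100. Large domains numbered 264 at day 0 and 654 at day 15 when joined up to 5 kb, and 826 at day 0 up to 25 kb, and 549 at day 15 without chromosomes 8 and 11. Of day 0 domains, 17.4% had no peak of the other day at 5 kb and 18.7% without chromosomes 8 and 11. Of day 15 domains, 16.4% had none at 25 kb and 25.1% without those chromosomes. Median widths of lost, kept day 0, kept day 15 and gained peaks were 1397, 1838, 1646 and 1315 bp with a score of at least 100, and 958, 1166, 1011 and 872 bp without chromosomes 8 and 11. In 600 bp, the octamer was in 8.40% of lost and 3.61% of gained peaks, the GATA letters were in 7.76% and 15.3%, and the median GC of lost peaks was 45.5%. Within 45 to 55% GC the GATA shares were 3.38% and 9.66% and the octamer share of gained peaks 1.12%. Without chromosomes 8 and 11, gained peaks had 41.7% GC and GATA letters in 9.50%. Of 151 recomputed values, 42 of main results and 16 of others were labelled the same, and 51 and 42 moved. Shares and medians were the same if they lay within the interval of the main value. Counts had no interval, and were the same if they lay within a fixed fold range of the main value, which is not an error. Depth per library is unknown, so how much of the number of peaks on either day it sets was not tested.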

Other observations

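Gene families outside the lists of the heart and stem cell programmes differed in the share of genes with a peak. These shares are not corrected for length, and median gene length was 0.960 kb for olfactory receptors, 1.09 kb for vomeronasal receptors, 4.06 kb for Hox genes, 0.530 kb for histone cluster genes and 3.69 kb for ribosomal protein genes. Of 1113 olfactory receptor genes, 37 had a WT day 0 peak (3.32%) and 9 a day 15 peak (0.809%), against 33.6% and 37.1% of all genes. Of 321 vomeronasal receptor genes the numbers were 16 and 2. Hox genes, silenced by Polycomb in stem cells, had 4 and 3 of 39, with no gene on both days. Histone cluster genes were at the other end, with peaks at 53 and 59 of 67 genes and on both days at 51 (76.1%, against 22.2%). Ribosomal protein genes had 59 and 70 of 95 (62.1% and 73.7%).

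Zfp genes, named for zinc finger proteins, had peaks at 151 of 367 genes at day 0 (41.1%, against 33.6% of all genes). They had peaks at 139 at day 15 (37.9%, against 37.1%), and at day 0 only at 68 (18.5%, against 11.4%). Potassium channel genes had 19 and 23 of 93 (20.4% and 24.7%), below both shares of all genes.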
